A study of Rattus norvegicus with 18 samples.

Results

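The antioxidant and glutathione genes described here are 10 genes chosen by symbol, with earlier results of these data known: Nfe2l2, Keap1, Hmox1, Nqo1, Gclc, Gclm, Slc7a11, Srxn1, Txnrd1 and Gsr. All 10 were listed among the 17307 gene symbols of the astrocyte tables and the 17327 of the microglia tables, and all 10 passed the filter on low counts in both cell types. RNA was sequenced from primary astrocytes and primary microglia of wild-type Sprague-Dawley rat pups at postnatal day 2, which were left untreated or received Aβ42 or Aβ40 fibrils at 25 µM for 24 h. Each of the 6 groups had 3 replicates, giving 18 libraries. The cells were grown from cortex as mixed glia, from which microglia were shaken off, so each culture can hold some cells of the other type. Nothing in the sources used here says whether the replicates came from separate cultures or animals, so the p-values measure the spread between these samples, which may be technical.

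NRF2, the transcription factor encoded by Nfe2l2, is held at a low level by KEAP1, an adaptor that delivers it to a ubiquitin ligase. Oxidants and electrophiles modify KEAP1, after which NRF2 accumulates, pairs with a small MAF protein and binds antioxidant response elements near its target genes. The level of the NRF2 protein is thus set largely after transcription. Among the targets, GCLC and GCLM form the enzyme that starts glutathione synthesis, SLC7A11 imports the cystine this needs in exchange for glutamate, and GSR returns oxidised glutathione to its reduced form. TXNRD1 does the same for thioredoxin, SRXN1 repairs over-oxidised peroxiredoxins, NQO1 reduces quinones and HMOX1 breaks down heme. In the brain, astrocytes are known for a high capacity of this pathway.

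RefSeq promoter windows on the rat assembly GRCr8, from 250 bases before to 50 bases after a gene's start, were at hand for 8 of the 10 genes, all but Hmox1 and Gsr, and Txnrd1 had 2 of them. They were searched on both strands for the antioxidant response element TGACNNNGC, which occurs in 12.1% of all 33469 windows of that table. The element was found in 3 of the 9 windows, those of Gclm, Txnrd1 and Nfe2l2. In Srxn1, a related element, TGANTCAGC, which is found in 1.11% of all windows, was searched for after that window had been read. The 4 matches are shown because they are where the windows held one or the other element, with the element in capitals and each stretch written along the gene's own strand. In Gclm and Txnrd1 the element reads on the opposite strand.
Gclm, chr2:213031953-213031982, element starting 172 bases before the start: tgcggtttctGCTTAGTCAttgtcttccag
Txnrd1, chr7:22755963-22755992, element starting 78 bases before the start: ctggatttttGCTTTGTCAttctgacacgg
Srxn1, chr3:161064797-161064826, element starting 5 bases before the start: aaactcacccTGAGTCAGCgacccgacgcg
Nfe2l2, chr3:81028950-81028979, element starting 38 bases after the start: actgctccgactagccatTGACGCCGCctc

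The window of Slc7a11, the gene with the highest fold change of the 10, held neither element, and nor did those of Keap1, Nqo1 and Gclc or the other window of Txnrd1. Its 250 bases before the start, at chr2:136668265-136668514 on the minus strand, are given because this is the promoter next to the gene that rose most.
Slc7a11: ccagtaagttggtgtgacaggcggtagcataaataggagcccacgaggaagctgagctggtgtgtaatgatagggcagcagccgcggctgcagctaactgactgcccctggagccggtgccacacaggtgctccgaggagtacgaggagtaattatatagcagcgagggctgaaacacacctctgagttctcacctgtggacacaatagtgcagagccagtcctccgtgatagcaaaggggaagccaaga
A missing match says only that these letters are not in this stretch, since elements are also known to lie farther from a gene.

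Counts on genes ranged from 3674043 to 19013919 per library in astrocytes and from 2271834 to 22274367 in microglia. Levels are given as scaled CPM, CPM being counts scaled to a common library size, here after TMM scaling within a cell type, and a difference was called at an adjusted p under 0.05 in edgeR's quasi-likelihood test. Microglia Aβ42 replicate 1, with 2613723 counts, stood apart. Its mean log2 difference (root mean square over 8596 genes) was 0.541 to the other replicates of its group and 0.317 to the Aβ40 libraries, while for replicates 2 and 3 these were 0.348 and 0.352 against 0.561 and 0.576. Calls of the 10 genes that change without it are given both ways. Summed microglial markers fell in the astrocyte cultures from 362 to 445 CPM in control to 57.6 to 79.9 with Aβ42 and 32.5 to 45.4 with Aβ40, with 9 and 10 of 10 markers called lower. They also fell in the microglia themselves, from 7675 to 8911 CPM in control to 1958 to 3167 with Aβ42 and 2789.6 to 3435 with Aβ40, with 8 and 9 of 10 called lower. There 1 marker was called higher with each fibril, Itgam, at 371 ± 23.3 CPM in control, 692 ± 48.0 with Aβ42 and 765 ± 16.6 with Aβ40. The astrocyte list summed to 8511 to 10210 CPM in control astrocytes, 5497 to 5763 with Aβ42 and 6084 to 6414 with Aβ40. Of its 8 genes, 2 were called higher and 5 lower with Aβ42 and 3 higher and 5 lower with Aβ40, with Aldh1l1 at 38.7 ± 9.78, 123 ± 10.9 and 106 ± 10.55 CPM against the fall of the sum. In microglia it summed to 195 to 219 CPM in control, 152 to 185 with Aβ42 and 202 to 209 with Aβ40. Oligodendrocyte lineage markers summed to 2379 to 2648 CPM in control microglia, 2888 to 3656 with Aβ42 and 2874 to 3525 with Aβ40, with 5 of 8 called higher with each fibril. In the astrocyte cultures they summed to 1630 to 2366 CPM in control, 1633 to 1787 with Aβ42 and 1713 to 1813 with Aβ40. There 3 of 8 were called lower with each fibril. In bulk RNA, fewer cells of a type and less RNA per cell cannot be told apart, and the part of these markers in the results below was not tested.

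**Figure D1:**
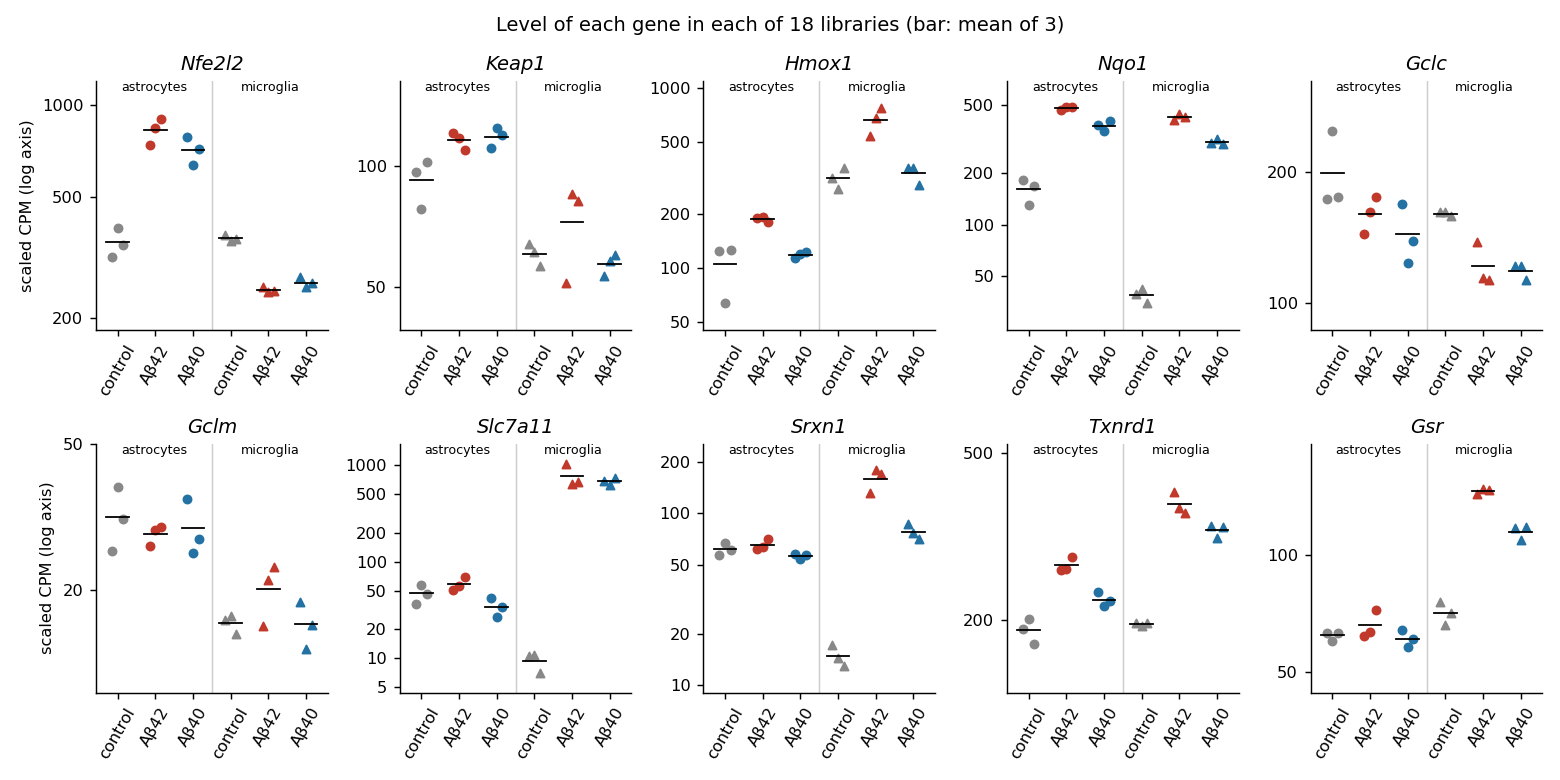
Level of each of the 10 genes in each of the 18 libraries, as CPM scaled within each cell type on a log axis, with circles for astrocytes, triangles for microglia and a bar at the mean of 3. Slc7a11 lay between 7.02 and 10.6 in control microglia and above 630 in every fibril-treated microglia library, whereas Nfe2l2 was higher than control with both fibrils in astrocytes and lower in microglia.

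In microglia, the cystine importer Slc7a11 rose most. Its level was 10.4, 10.6 and 7.02 CPM in the control libraries, 1047, 634 and 668 with Aβ42 and 689, 633 and 743 with Aβ40. No treated library came near the controls, and with Aβ42 the highest value was in replicate 1. The fitted change was 83.5-fold with Aβ42 (log2 fold change 6.38 ± 0.24 SE, adjusted p = 1.37e-09) and 73.6-fold with Aβ40 (6.20 ± 0.24 SE, adjusted p = 2.00e-09). The control libraries held 88, 55 and 46 reads of the gene, well above the detection limit of 3.

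Nqo1 and Srxn1 also passed a fold change of 5. The quinone reductase Nqo1 was at 39.2, 42.3 and 34.8 CPM in control, 411, 443 and 429 with Aβ42 and 303, 316 and 297 with Aβ40. All Aβ42 libraries were above all Aβ40 libraries, and all of these above control. The change was 11.0-fold with Aβ42 (3.46 ± 0.11 SE, adjusted p = 5.74e-10) and 7.89-fold with Aβ40 (2.98 ± 0.11 SE, adjusted p = 1.40e-09). Srxn1, the repair enzyme of peroxiredoxins, was at 17.1, 14.5 and 13.0 CPM in control, 132, 178 and 169 with Aβ42 and 87.1, 76.5 and 71.2 with Aβ40. Its groups did not overlap either, and it rose 10.8-fold with Aβ42 (3.43 ± 0.16 SE, adjusted p = 5.12e-09) and 5.26-fold with Aβ40 (2.40 ± 0.16 SE, adjusted p = 1.53e-07). The 3 genes that passed 5-fold with each fibril stand beside 3.69% of the 10837 genes tested with Aβ42 and 3.36% with Aβ40 that were called higher at 5-fold.

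The reductases of thioredoxin and glutathione rose less. Txnrd1 was at 197, 194 and 197 CPM in control, 403, 370.0 and 359.7 with Aβ42 and 336, 314 and 332 with Aβ40, changes of 1.93-fold (0.95 ± 0.09 SE, adjusted p = 3.50e-06) and 1.67-fold (0.74 ± 0.09 SE, adjusted p = 3.83e-05). Gsr was at 75.5, 65.7 and 70.8 CPM in control, 144, 147 and 146 with Aβ42 and 117, 109 and 118 with Aβ40, changes of 2.06-fold (1.04 ± 0.10 SE, adjusted p = 2.33e-06) and 1.62-fold (0.69 ± 0.10 SE, adjusted p = 0.000111). In both genes every treated library lay above every control library. Hmox1, the heme oxygenase, was called with 1 fibril only. It stood at 318, 275 and 361 CPM in control and at 544, 686 and 776 with Aβ42, a 2.10-fold rise (1.07 ± 0.15 SE, adjusted p = 8.24e-05). With Aβ40 it was at 360.3, 362 and 291 CPM, within the range of the controls or next to it (0.09 ± 0.15 SE, 95% interval -0.24 to 0.42, adjusted p = 0.677).

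Nfe2l2 itself fell in microglia. It was at 375, 358 and 363 CPM in control, 253, 244 and 245 with Aβ42 and 272, 253 and 261 with Aβ40, so that no treated library reached the lowest control. The log2 fold change was -0.56 ± 0.09 SE with Aβ42 (adjusted p = 0.000191) and -0.48 ± 0.09 SE with Aβ40 (adjusted p = 0.000841). Keap1, which encodes its adaptor, was at 64.1, 61.2 and 56.3 CPM in control, 51.2, 84.8 and 81.8 with Aβ42 and 53.3, 57.9 and 60.2 with Aβ40. The Aβ42 replicates fell on both sides of the controls, with replicate 1 the lowest of all 9 libraries, and neither change was called (0.30 ± 0.16 SE, adjusted p = 0.134 and -0.09 ± 0.17 SE, adjusted p = 0.714).

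The subunits of the enzyme that starts glutathione synthesis did not follow Slc7a11. The catalytic subunit Gclc was at 162, 162 and 158 CPM in control, 138, 114 and 113 with Aβ42 and 122, 122 and 113 with Aβ40. It fell with Aβ42 (-0.41 ± 0.10 SE, adjusted p = 0.00568) and with Aβ40 (-0.43 ± 0.11 SE, adjusted p = 0.00568), with no overlap between treated and control libraries. The modifier subunit Gclm was at 16.6, 17.0 and 15.3 CPM in control, 16.0, 21.3 and 23.2 with Aβ42 and 18.6, 13.9 and 16.1 with Aβ40, and was not called (0.36 ± 0.16 SE, adjusted p = 0.0712 and -0.01 ± 0.18 SE, adjusted p = 0.971). In microglia, 6 of the 10 genes thus rose and 2 fell with Aβ42, where 27.1% of all tested genes were called higher and 26.6% lower. With Aβ40, 5 rose and 2 fell, where 19.6% were called higher and 21.4% lower. The median log2 fold change of the 10 was 0.99 and 0.39, beside 0.01 over all tested genes in both comparisons, which share the control libraries. Without Aβ42 replicate 1, all 10 genes were called with Aβ42, Keap1 at 0.45 (adjusted p = 0.000168) and Gclm at 0.44 (adjusted p = 0.00507), and the called genes of the whole table went from 5820 to 7838. With 10837 genes tested when all libraries were used, most genes were thus called in that fit.

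**Figure D2:**
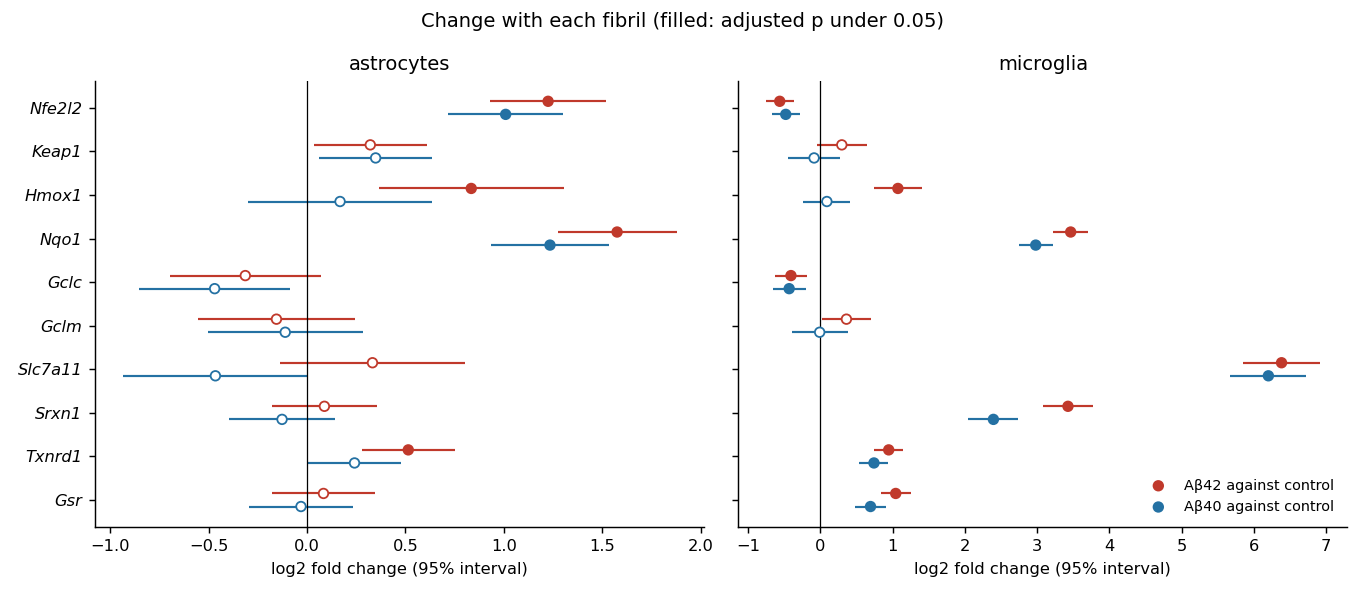
Log2 fold change against control of the 10 genes with Aβ42 and Aβ40 fibrils, with 95% intervals, in astrocytes and in microglia (the horizontal axes differ), with filled points at an adjusted p under 0.05. In astrocytes the highest point is Nqo1 at 1.58 with Aβ42, and in microglia it is Slc7a11 at 6.38.

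In astrocytes, 4 of the 10 genes were called with Aβ42 and 2 with Aβ40. Nfe2l2 rose, from 318, 397 and 349 CPM in control to 744, 842 and 901 with Aβ42 and 786, 636 and 720.3 with Aβ40. The lowest treated library was above the highest control, and the change was 2.34-fold with Aβ42 (1.23 ± 0.13 SE, adjusted p = 3.27e-05) and 2.01-fold with Aβ40 (1.01 ± 0.13 SE, adjusted p = 0.000149). Nqo1 rose from 184, 131 and 169 CPM to 472, 486 and 486 with Aβ42 and 381, 354 and 405 with Aβ40. Its groups did not overlap, with a 2.98-fold change for Aβ42 (1.58 ± 0.14 SE, adjusted p = 5.62e-06) and a 2.35-fold change for Aβ40 (1.23 ± 0.14 SE, adjusted p = 3.84e-05).

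Hmox1 and Txnrd1 were called with Aβ42 but not with Aβ40 in astrocytes. Hmox1 was at 125, 64.4 and 126 CPM in control, 191, 193 and 181 with Aβ42 and 114, 119 and 123 with Aβ40. Control replicate 2 lay far below its mates, and the change was 0.83 ± 0.21 SE with Aβ42 (adjusted p = 0.00982) and 0.17 ± 0.21 SE with Aβ40 (adjusted p = 0.587). Without that replicate the Aβ40 value of Hmox1 was -0.08. Txnrd1 was at 191, 201 and 176 CPM in control, 263, 265 and 282 with Aβ42 and 233, 216 and 222 with Aβ40. It rose with Aβ42 (0.51 ± 0.11 SE, adjusted p = 0.00291), and with Aβ40 all libraries were above control but the test did not pass (0.24 ± 0.11 SE, adjusted p = 0.107), except without control replicate 2 (0.30, adjusted p = 0.0305).

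The other 6 genes were not called in astrocytes with either fibril. Slc7a11, which changed most in microglia, was at 36.5, 57.9 and 46.1 CPM in control astrocytes, 51.2, 56.1 and 70.1 with Aβ42 and 41.6, 26.7 and 33.9 with Aβ40. The treated libraries overlapped the controls with both fibrils, and the 95% intervals ran from -0.14 to 0.80 with Aβ42 (adjusted p = 0.252) and from -0.94 to 0.01 with Aβ40 (adjusted p = 0.121). Srxn1 was at 57.3, 67.0 and 61.0 CPM in control, 62.1, 64.1 and 71.0 with Aβ42 and 58.2, 54.2 and 57.4 with Aβ40, with intervals from -0.18 to 0.36 and from -0.39 to 0.14. Gsr was at 62.9, 60.1 and 62.9 CPM in control, 61.7, 63.3 and 72.2 with Aβ42 and 63.8, 57.8 and 60.5 with Aβ40, with intervals from -0.18 to 0.35 and from -0.29 to 0.23. For Slc7a11, Srxn1 and Gsr these intervals leave no room for rises of the size seen in microglia.

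Gclc was at 173, 249 and 176 CPM in control astrocytes, 144, 162 and 175 with Aβ42 and 169.5, 124 and 139 with Aβ40, differences of -0.31 ± 0.17 SE (adjusted p = 0.189) and -0.47 ± 0.17 SE (adjusted p = 0.0604). Gclm was at 25.6, 38.1 and 31.2 CPM in control, 26.4, 29.2 and 29.8 with Aβ42 and 35.4, 25.2 and 27.6 with Aβ40, and its groups overlapped. Keap1 was at 96.6, 78.3 and 102 CPM in control, 121, 117 and 109.5 with Aβ42 and 110.4, 124 and 119 with Aβ40. All treated Keap1 libraries lay above all controls, by 0.32 ± 0.13 SE (adjusted p = 0.0754) and 0.35 ± 0.13 SE (adjusted p = 0.0604), and without control replicate 3 both passed the test (0.40, adjusted p = 0.0355 and 0.43, adjusted p = 0.0288). The share of all tested genes whose treated libraries separate from control in this way was not counted in either cell type. Gclc with Aβ40 passed as lower without control replicate 3 (-0.55, adjusted p = 0.0440) and without Aβ40 replicate 1 (-0.59, adjusted p = 0.0424). In all, 4 of the 10 genes rose with Aβ42 and 2 with Aβ40 in astrocytes. The shares of the 11690 tested genes called higher were 16.5% and 14.9%, and those called lower were 20.4% and 18.4%. None of the 10 reached 5-fold, where 3.03% and 2.82% of all tested genes were called higher. Their medians were 0.33 and 0.07, beside 0.00 over all tested genes.

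Whether the fibrils differed from each other was tested directly. In microglia 4 of the 10 genes were higher with Aβ42 than with Aβ40, where 11.3% of all tested genes were called higher and 9.01% lower. Srxn1 was 2.05-fold higher (1.03 ± 0.14 SE, adjusted p = 0.00518) and Hmox1 1.98-fold (0.98 ± 0.15 SE, adjusted p = 0.00660). Nqo1 was 1.40-fold higher (0.48 ± 0.10 SE, adjusted p = 0.0156) and Gsr 1.27-fold (0.35 ± 0.10 SE, adjusted p = 0.0315). In each of these 4 genes the lowest Aβ42 library was above the highest Aβ40 library. This was also so for Txnrd1, which was not called (0.20 ± 0.09 SE, adjusted p = 0.116). The share of all tested genes that separate like this was not counted. For Slc7a11 the difference was 0.18 ± 0.18 SE with an interval from -0.22 to 0.58 (adjusted p = 0.468), and for Nfe2l2 -0.08 ± 0.09 SE with an interval from -0.28 to 0.11 (adjusted p = 0.495).

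Replicate choice bore on this comparison more than on any other. Without microglia Aβ42 replicate 1, 6 genes were called, with Keap1 at 0.55 (adjusted p = 0.000126) and Gclm at 0.46 (adjusted p = 0.0133) added, Slc7a11 at -0.08 and Gclc at -0.07, and the called genes of the table went from 2198 to 6004. Beside the 10837 genes tested with all libraries, 6 of the 10 was near the share of all genes called in that fit. Without any 1 of the other 5 fibril-treated microglia libraries, Srxn1 and Hmox1 remained called while Nqo1 (adjusted p from 0.0598 to 0.0739) and Gsr (adjusted p from 0.0920 to 0.127) did not pass. In astrocytes edgeR called 0 of the 10 genes between the fibrils, where 0.0599% of all tested genes were called higher and 0.0257% lower. At an unadjusted p under 0.05 there were 4, a looser threshold to which these shares do not apply. By p, the last of the 4 ranked 495 among the 11690 tested genes. The 4 were Slc7a11 (0.80 ± 0.21 SE, adjusted p = 0.257), Hmox1 (0.67 ± 0.21 SE, adjusted p = 0.381), Txnrd1 (0.27 ± 0.11 SE, adjusted p = 0.614) and Nqo1 (0.34 ± 0.13 SE, adjusted p = 0.626). DESeq2's test called 1 of the 10, Slc7a11 (adjusted p = 0.0469). In Slc7a11, Hmox1, Txnrd1 and Nqo1 all Aβ42 astrocyte libraries were above all Aβ40 ones. The same held for Srxn1 (0.22 ± 0.12 SE, adjusted p = 0.992 in edgeR's test). How many of all tested genes separate in this way was not counted.

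**Figure D3:**
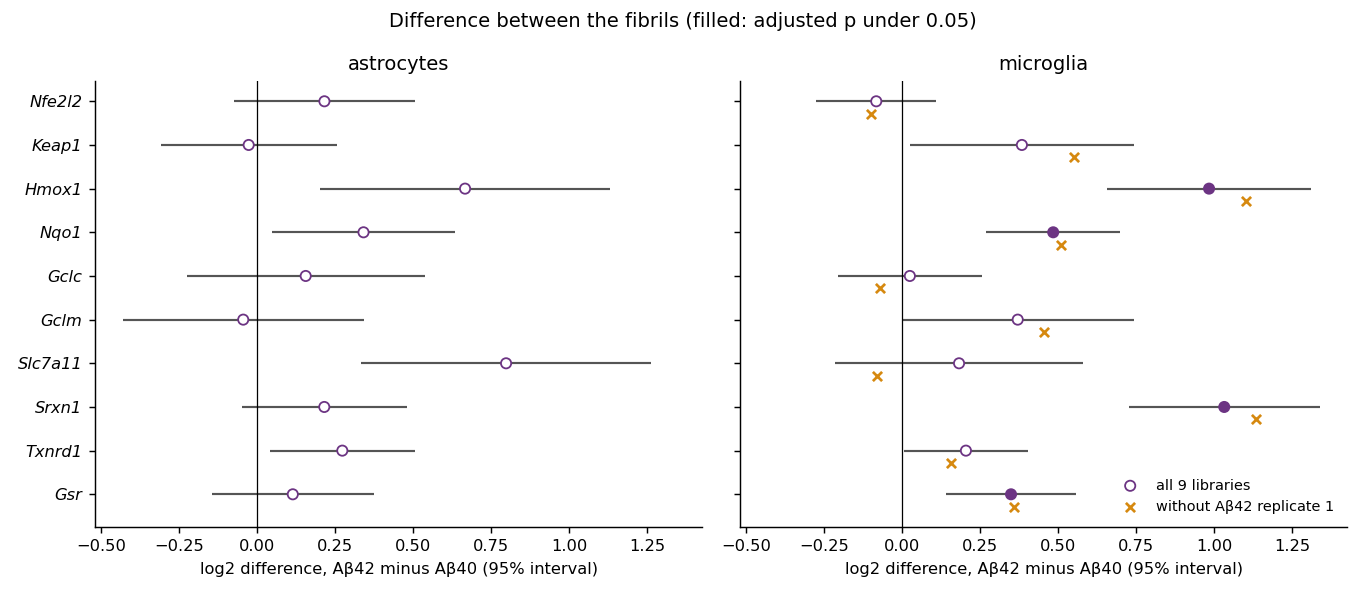
Difference between the fibrils, as log2 level with Aβ42 minus Aβ40 and its 95% interval, for the 10 genes in astrocytes and microglia, with filled points at an adjusted p under 0.05 and crosses for the value without microglia Aβ42 replicate 1. Srxn1 and Hmox1 stand highest in microglia, at 1.03 and 0.98, and the cross of Slc7a11 lies on the other side of 0 from its point.

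The responses of the cell types were compared by the interaction of cell type and treatment over all 18 libraries. With Aβ42, 5 of the 10 genes changed more towards higher levels in microglia than in astrocytes and 1 more towards lower levels, where 19.3% and 17.9% of the 11581 genes tested were called in these directions. The differences (microglia minus astrocytes, log2) were 6.04 ± 0.33 SE for Slc7a11 (adjusted p = 1.18e-10), 3.33 ± 0.21 SE for Srxn1 (adjusted p = 6.64e-10) and 1.88 ± 0.17 SE for Nqo1 (adjusted p = 9.32e-08). They were 0.95 ± 0.15 SE for Gsr (adjusted p = 6.10e-05) and 0.42 ± 0.13 SE for Txnrd1 (adjusted p = 0.0177), a call that was lost when the replicate number was a block (adjusted p = 0.0537). Nfe2l2 went the other way, at -1.80 ± 0.16 SE (adjusted p = 6.67e-08), since its level fell in microglia and rose in astrocytes.

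With Aβ40 the same 6 genes were called, 5 in the higher and 1 in the lower direction, where 16.0% and 16.5% of all tested genes were called. Slc7a11 differed by 6.65 ± 0.33 SE, Srxn1 by 2.50 ± 0.21 SE, Nqo1 by 1.73 ± 0.17 SE, Gsr by 0.71 ± 0.15 SE, Txnrd1 by 0.48 ± 0.13 SE and Nfe2l2 by -1.51 ± 0.16 SE. Hmox1, Keap1, Gclc and Gclm were not called with either fibril. The interval for Hmox1 with Aβ42 ran from -0.34 to 0.80, and without astrocyte control replicate 2 its difference was 0.48 (adjusted p = 0.0496). Gclm with Aβ42 differed by 0.50 ± 0.25 SE (adjusted p = 0.130) and passed without astrocyte control replicate 1 (0.67, adjusted p = 0.0421) and without microglia Aβ42 replicate 1 (0.61, adjusted p = 0.0479).

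Untreated astrocytes and microglia started from different levels. On a scale common to all 18 libraries, 5 of the 10 genes were higher in control astrocytes and 4 in control microglia, where 34.5% and 34.2% of tested genes were called. Slc7a11 was 4.22-fold higher in astrocytes (2.08 ± 0.24 SE, adjusted p = 3.11e-07), Nqo1 3.50-fold (1.81 ± 0.13 SE, adjusted p = 2.05e-10), Srxn1 3.48-fold (1.80 ± 0.15 SE, adjusted p = 3.82e-09) and Gclm 1.63-fold (0.71 ± 0.18 SE, adjusted p = 0.00217). Hmox1 was 3.59-fold higher in microglia (-1.84 ± 0.20 SE, astrocytes minus microglia, adjusted p = 1.08e-07). Gsr (-0.44 ± 0.11 SE), Txnrd1 (-0.30 ± 0.09 SE) and Nfe2l2 (-0.29 ± 0.11 SE) were also called higher in microglia and Keap1 (0.36 ± 0.16 SE, adjusted p = 0.0477) higher in astrocytes, while Gclc was not called (0.06 ± 0.15 SE). These small differences were less firm. With scaling by library totals, which moved the median of all genes by 0.28 and the share of called genes that were higher in astrocytes from 50.19% to 62.59%, Gsr, Txnrd1 and Nfe2l2 no longer passed (-0.17, -0.03 and -0.01). Keap1 lost its call in 5 of 6 fits that left out 1 control library (adjusted p from 0.0549 to 0.161), all but the one without astrocyte control replicate 2. Nfe2l2 lost it without astrocyte control replicate 1 (-0.17, adjusted p = 0.209) or 3 (-0.27, adjusted p = 0.0675) and without microglia control replicate 1 (-0.28, adjusted p = 0.0733).

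Across the 6 groups, the order of levels on the common scale differed from gene to gene. Nqo1 stood at 480.1 ± 28.3 CPM (SD, n = 3) in Aβ42 microglia and 457 ± 12.8 in Aβ42 astrocytes, then 359.4 ± 25.7 in Aβ40 astrocytes and 339.6 ± 13.3 in Aβ40 microglia, and both of these pairs overlapped in their libraries. Control astrocytes (151 ± 25.4) and control microglia (43.1 ± 4.43) lay apart below them, and apart from each other. For Slc7a11 the order was Aβ42 microglia (875 ± 233) and Aβ40 microglia (764 ± 55.3), which overlapped, then Aβ42 (56.2 ± 10.1), control (43.8 ± 10.1) and Aβ40 astrocytes (32.3 ± 7.45), each overlapping its neighbour, and control microglia last (10.4 ± 2.28).

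Srxn1 was highest in Aβ42 microglia (179.6 ± 31.5), then Aβ40 microglia (87.0 ± 9.42), then the 3 astrocyte groups between 53.5 and 62.4 CPM, which overlapped in neighbouring pairs, and lowest in control microglia (16.5 ± 2.35). Hmox1 was highest in Aβ42 microglia (752 ± 147), followed by Aβ40 (376 ± 47.7) and control microglia (354 ± 46.0), which overlapped, and all of these were above Aβ42 astrocytes (179 ± 4.18). Aβ40 astrocytes (112 ± 3.33) and control astrocytes (98.3 ± 32.8) came last and overlapped. Nfe2l2 was highest in Aβ42 (787 ± 85.3) and Aβ40 astrocytes (675 ± 80.0), which overlapped, and lowest in Aβ42 microglia (278 ± 1.47), just below Aβ40 microglia (291 ± 10.9). Between them, control microglia (406 ± 9.53) lay above control astrocytes (331 ± 37.3) without overlap, while control astrocytes overlapped Aβ40 microglia.

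Txnrd1 was highest in Aβ42 (423 ± 15.2) and Aβ40 microglia (364 ± 11.5), followed by Aβ42 astrocytes (256 ± 13.1), control microglia (218 ± 1.198), Aβ40 astrocytes (211 ± 11.1) and control astrocytes (177 ± 13.45), and of these neighbours control microglia and Aβ40 astrocytes overlapped. Gsr fell in the order Aβ42, Aβ40 and control microglia (164 ± 5.86, 127 ± 4.76 and 78.5 ± 5.295), which did not overlap, with the 3 astrocyte groups between 57.4 and 62.4 CPM below them. Keap1 was at 111 ± 5.08 and 109.7 ± 3.99 CPM in Aβ40 and Aβ42 astrocytes and lowest in Aβ40 microglia (63.5 ± 3.59). Gclc was highest in control astrocytes (187 ± 41.05) and control microglia (179 ± 3.10), which overlapped, and the 4 treated groups lay between 132 and 152 CPM. Gclm was at 27.0 to 29.6 CPM in the astrocyte groups and 17.97 to 22.7 CPM in the microglia groups.

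Other genes of the pathway were followed through lists of its regulators, other targets, glutathione metabolism, thioredoxins and peroxiredoxins, and the amino acid response of ATF4, a factor that is also known to act on Slc7a11. The lists were also chosen with earlier results of these data known, so counts above the shares of all genes are a description only. Of the other NRF2 targets, 16 of 29 tested rose and 4 fell in Aβ42 microglia, with a median log2 fold change of 0.46, and 13 rose and 4 fell with Aβ40, with a median of 0.14. Of all genes tested in microglia, 27.1% were called higher and 26.6% lower with Aβ42, and 19.6% and 21.4% with Aβ40. In astrocytes 11 of 31 rose and 4 fell with Aβ42, and 9 rose and 5 fell with Aβ40, with medians of 0.31 and 0.22, where 16.5% and 14.9% of all tested genes were called higher and 20.4% and 18.4% lower. The counts of the other lists stand beside these same shares. The aldose reductase relative Akr1b8 changed most, from 51.7 ± 13.1 to 2180.4 ± 432 CPM in Aβ42 microglia (42.01-fold, adjusted p = 1.49e-09) and 1491 ± 34.2 with Aβ40, and from 2.46 ± 0.77 to 30.01 ± 2.36 and 23.4 ± 2.28 CPM in astrocytes. Osgin1 rose 7.38-fold and 6.13-fold in microglia. In astrocytes Mgst1, a microsomal glutathione transferase, rose 2.82-fold and 1.99-fold. Against the direction of these, Blvra (log2 -0.65 and -0.99) and Ephx1 (-0.60 and -0.88) fell in microglia with both fibrils, as did Aox1 (-1.74 and -1.76) and Cat, which encodes catalase (-0.60 and -0.60), in astrocytes.

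Among the regulators, 5 of 12 tested rose and 3 fell in Aβ42 microglia, 3 rose and 1 fell with Aβ40, and in astrocytes 4 of 14 rose and 1 fell with Aβ42 while 5 rose with Aβ40. In Aβ42 microglia the share of regulators that fell was near the 26.6% of all tested genes. With Aβ40 the share that rose in microglia was near the 19.6% of all tested genes. Maff, a small MAF partner, rose in both cell types, 12.8-fold and 7.87-fold in microglia and 8.47-fold and 7.38-fold in astrocytes. Rbx1, part of the ubiquitin ligase that KEAP1 serves, rose 2.01-fold and 1.42-fold in microglia, and Dpp3, whose protein can bind KEAP1, rose 2.20-fold and 2.21-fold in astrocytes. Of the thioredoxin and peroxiredoxin list, 3 of 16 rose and 6 fell in Aβ42 microglia and 3 rose and 4 fell in each of the other 3 comparisons with control, counts that lay near the shares of all genes called (14.9% to 27.1% higher, 18.4% to 26.6% lower) or, for the 6 that fell, somewhat above. Prdx5, a peroxiredoxin, rose 8.69-fold and 6.64-fold in microglia and 1.80-fold and 1.72-fold in astrocytes, and Prdx6 rose 1.66-fold and 1.34-fold in microglia. Msrb1, a methionine sulfoxide reductase, rose 1.84-fold and 1.82-fold in astrocytes. The sestrins Sesn1 (log2 -2.13 and -2.35) and Sesn3 (-1.56 and -0.97) fell in microglia, and Sesn3 (-1.49 and -1.27) and the thioredoxin inhibitor Txnip (-1.04 and -0.79) in astrocytes.

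The glutathione list had no single direction. In microglia 10 of 28 tested rose and 8 fell with Aβ42, beside 27.1% and 26.6% of all tested genes, and 6 rose and 10 fell with Aβ40, beside 19.6% and 21.4%, with medians of 0.07 and -0.21. In astrocytes 7 of 33 rose and 5 fell with Aβ42 and 6 rose and 6 fell with Aβ40. The 5 that fell were 9 without control replicate 2 and 3 without control replicate 1, Aβ42 replicate 2 or Aβ42 replicate 3. Slc3a2, whose protein is the partner chain of SLC7A11, rose from 318 ± 8.57 CPM in microglia to 842 ± 41.2 with Aβ42 (2.65-fold, adjusted p = 9.96e-08) and 629.9 ± 22.2 with Aβ40 (1.98-fold, adjusted p = 2.85e-06), and the glutaredoxin Glrx rose 3.70-fold and 3.49-fold. Gpx3, a secreted glutathione peroxidase (log2 -2.57 and -2.50), and Oplah, the oxoprolinase of glutathione turnover (-2.52 and -3.04), fell in microglia. In astrocytes Ggt1, which starts glutathione breakdown outside the cell, rose 4.15-fold and 3.41-fold, and Slc1a1, a glutamate and cysteine transporter, 2.47-fold and 2.34-fold, while Oplah (-1.47 and -1.12) and Hpgds (-1.13 and -1.88) fell.

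Of the ATF4 list, 13 of 16 tested rose and 2 fell in Aβ42 microglia, where 27.1% of all tested genes were called higher, and 10 rose and 3 fell with Aβ40, where 19.6% were, with medians of 0.69 and 0.58. In astrocytes 9 of 18 rose and 2 fell, then 7 rose and 3 fell, with medians of 0.32 and 0.20. Trib3 rose 10.9-fold and 6.94-fold and Cebpb 13.6-fold and 4.27-fold in microglia, where the Aβ42 libraries of Cebpb were spread widely (202 ± 96.5 CPM). Ddit3, a stress factor downstream of ATF4, rose 4.34-fold and 3.51-fold in astrocytes, and Trib3 3.56-fold and 4.01-fold from a control level of 0.87 ± 0.73 CPM. The serine synthesis gene Phgdh fell in both cell types, to 0.600 and 0.499 of control in microglia and 0.397 and 0.436 in astrocytes, with Psat1 (-1.67 and -1.48) in astrocytes and Vldlr (-1.40 and -1.64) in microglia.

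Several list counts changed when 1 library was left out, some of them with any of several libraries. Calls of the whole table changed as well. With Aβ42 in microglia they went from 5820 to between 4659 and 5258 when a library other than Aβ42 replicate 1 was left out. Without microglia Aβ42 replicate 1, 7 genes of the thioredoxin and peroxiredoxin list rose with Aβ42 in place of 3, and 18 of the other targets rose and 6 fell, 6 regulators rose and 4 fell and 12 glutathione genes rose and 9 fell, while the ATF4 counts were 13 and 2 as before. In that fit 7838 genes of the whole table were called, 49.25% of them higher, against 5820 and 50.43% with all libraries. The lower shares of all genes given above thus do not apply to these counts. The 4 other targets that fell in Aβ42 microglia were 1 without control replicate 1 or 3 and 2 without control replicate 2, Aβ42 replicate 2 or Aβ42 replicate 3. The 3 regulators that fell there were 1 without control replicate 3 or Aβ42 replicate 2. With Aβ40 in microglia, the regulator that fell lost its call without control replicate 1 or 2 or any Aβ40 replicate, and the 6 glutathione genes that rose were 3 without control replicate 1 or Aβ40 replicate 3.

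In astrocytes, the 4 other targets that fell with Aβ42 were 1 without control replicate 1, Aβ42 replicate 1 or Aβ42 replicate 2, and the 11 that rose were 7 without Aβ42 replicate 3. The 5 other targets that fell with Aβ40 became 2 with control replicate 1 left out, 3 with Aβ40 replicate 1 left out and 1 with either other Aβ40 library left out. The 3 thioredoxin and peroxiredoxin genes that rose were 1 without Aβ42 replicate 2 and, with Aβ40, 1 without control replicate 1, Aβ40 replicate 2 or Aβ40 replicate 3. Without Aβ42 replicate 3, 5 ATF4 genes rose with Aβ42 in place of 9. Of the regulators, 7 rose with Aβ42 in place of 4 without control replicate 2, and 3 rose with Aβ40 in place of 5 without Aβ40 replicate 3. The regulator that fell with Aβ42 lost its call without control replicate 1, Aβ42 replicate 1 or Aβ42 replicate 3, and without control replicate 3 there were 2 that fell with each fibril.

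**Figure D4:**
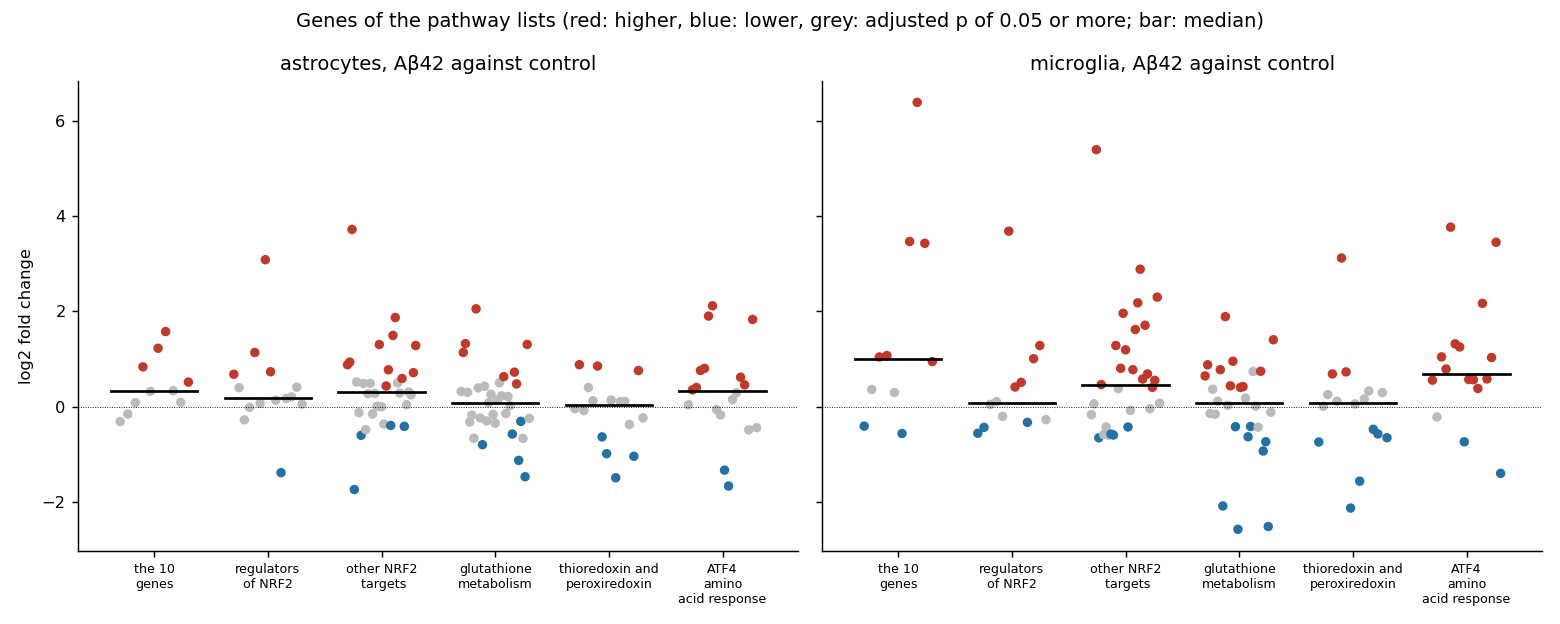
Log2 fold change with Aβ42 against control of each tested gene in the 10 antioxidant genes and the 5 pathway lists, in astrocytes and microglia, with red for called higher, blue for called lower, grey for not called and a bar at the median of each list. In microglia the bars of the 10 genes (0.99), the other NRF2 targets (0.46) and the ATF4 list (0.69) lie above 0, while those of the glutathione (0.07) and thioredoxin (0.08) lists lie close to it.

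The genes whose 6 group means were most like those of Nfe2l2, Hmox1 and Slc7a11 were sought over all tested genes, by the root mean square difference of log2 levels after centring, as a description without a test. Nearest to Nfe2l2 were Galnt4 (0.093), Abcd2 (0.12) and Gsdmd (0.13). Galnt4, for example, stood at 13.7, 27.8 and 23.4 CPM in control, Aβ42 and Aβ40 astrocytes and at 15.8, 10.2 and 10.9 in the same groups of microglia. Nearest to Hmox1 were Pqlc1 (0.18), Zfand2a (0.23) and Tmem199 (0.23). Slc7a11 had less close neighbours, Il23a (0.40), Adora2a (0.44) and Dcn (0.46). In control microglia these lay at 0.53, 0.50 and 0.47 CPM, near the detection limit of 0.364 to 0.588 CPM in those libraries. Their distances thus rest in part on the 0.5 CPM added before logs were taken. Dcn, also a fibroblast marker, went from 0.47 CPM in control microglia to 79.6 with Aβ42 and 71.8 with Aβ40, while the collagen Col1a1 in the same libraries was at 44.8 ± 4.68, 63.4 ± 20.8 and 46.9 ± 4.44 CPM on the scale within microglia. The fibroblast list summed to 55.3 to 67.7 CPM in control microglia, 134 to 162 with Aβ42 and 119 to 125 with Aβ40, with 3 of 4 tested called higher with Aβ42 (Dcn, Lum and Col1a1), and 2 called higher (Dcn and Lum) and 1 lower with Aβ40. The gene that fell was the collagen Col3a1, at 15.9 ± 2.33 CPM in control, 8.91 ± 5.05 with Aβ42 and 3.35 ± 1.68 with Aβ40. Its part in the level of Slc7a11 was not tested.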

How the data were processed

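RNA of 9 astrocyte and 9 microglia libraries was prepared with the TruSeq Stranded mRNA kit and sequenced in pairs of reads. The authors deposited raw counts of reads per gene symbol for each library. Reads had been aligned to rn5 with STAR, and Salmon and DESeq2 are also named for this step, with versions and the strand setting not given in the sources used here. Reads on no gene or on more than 1 gene (26.0% to 34.2% of an astrocyte library, 21.7% to 24.5% of a microglia library) were left out. Precision depends on depth, and 3 counts, taken as the detection limit, correspond to 0.158 to 0.817 CPM in astrocytes and 0.135 to 1.32 CPM in microglia, for counting error only.

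Counts were tested with edgeR 4.0.16 (limma 3.58.1, R 4.3.3) using filterByExpr, TMM, glmQLFit and glmQLFTest, with the 9 libraries of a cell type fitted together and all 18 for cell type contrasts, and Benjamini-Hochberg adjustment over all tested genes. SE is the log2 fold change divided by the root of F. The procedure was tested on simulated data. Alternatives were DESeq2 1.42.0, its size factors, library totals, no filter, the compared groups alone, a replicate block, and leaving out libraries, including astrocyte control replicate 2 and Aβ42 replicate 3 together, whose files are named by another scheme. The members and lists were chosen with earlier results of these data known. List genes named are, per list and cell type, up to 2 highest and 2 lowest by mean change among those called with both fibrils, plus the 3 genes nearest in pattern and leading markers. A second promoter element and the Col1a1 values were added after the data were seen. Nfe2l1, Txn and Trim16l were not analysed. Gsta3, Gpx2 and Slc7a9 of the pathway lists were also untested in both cell types. In microglia, Bach2, Nfe2l3, Mgst2, Aox1, Ggt1, Ggt5, Gpx7, Gstt1, Cbs, Aldh18a1 and Nupr1 were untested as well.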

Additional observations from a re-analysis of the deposited data

Results flagged for a closer look

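Of the 10 genes, 6 differed between the cell types in their response to a fibril in the test of the interaction, with microglia minus astrocytes given on the log2 scale. With Aβ42 these were Slc7a11 (6.04), Srxn1 (3.33), Nqo1 (1.88), Gsr (0.95), Txnrd1 (0.42) and Nfe2l2 (-1.80). With Aβ40 they were Slc7a11 (6.65), Srxn1 (2.50), Nqo1 (1.73), Gsr (0.71), Txnrd1 (0.48) and Nfe2l2 (-1.51). The call of Txnrd1 with Aβ42 was lost when the replicate number was a block (0.42, adjusted p = 0.0537). Nfe2l2 was called in opposite directions in the cell types with both fibrils, up in 6 of 6 treated astrocyte libraries and down in 6 of 6 treated microglia libraries against the controls.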

How the results depend on the processing

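Of 540 values of the 10 genes under settings other than leaving out 1 library, 511 kept their direction and their side of the threshold, 8 passed it newly, 11 no longer passed and 10 changed sign, none of these 10 past the threshold. Without both differently named astrocyte libraries, the signs changed for Gsr with Aβ42 (-0.017), Hmox1 (-0.086) and Gclm (0.0092) with Aβ40 and Keap1 between the fibrils (0.0036). Gclm with Aβ40 in microglia was 0.000798 with DESeq2's size factors and 0.0010 with its test. The cell type difference of Keap1 with Aβ42 was 0.020, 0.0070 and 0.031 with DESeq2's size factors, library totals and DESeq2's test, and that of Gclc with Aβ40 -0.014 without the filter. DESeq2 called 4 of the 10 with Aβ40 in astrocytes. Between the fibrils in astrocytes, 10 genes of the table and 0 of the 10 were called, against 141 and 1 with DESeq2, 265 and 2 with the compared groups alone, 120 and 1 without both differently named libraries and 0 genes of the table with the replicate block. In microglia the 2198 genes became 752 with the block and 106 with the compared groups alone, which called 2 of the 10. Of the called genes, 70.00% were higher with Aβ42 in astrocytes (56.74% with DESeq2, 48.68% with the compared groups alone, 52.50% without both libraries), and 55.60% in microglia (67.77% and 70.71% without Aβ42 replicates 2 and 3). The cause was not tested. Pearson's correlation shared 1, 1 and 1 of the 3 nearest genes of Nfe2l2, Hmox1 and Slc7a11.

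Leaving out 1 library kept 601 of 660 values. The called genes of the table between the fibrils ranged from 0 to 4 in astrocytes and 99 to 6004 in microglia, and the called members from 2 to 6 in microglia and, with Aβ40 in astrocytes, from 2 to 4. Signs changed for Gclm (-0.25 to 0.018), Gsr (-0.060 to 0.013) and Hmox1 (-0.077 to 0.33) with Aβ40 in astrocytes, Gclm (-0.15 to 0.10) and Keap1 (-0.075 to 0.0088) between the fibrils there, Gclm with Aβ40 (-0.14 to 0.10) and, between the fibrils, Gclc (-0.071 to 0.074) and Slc7a11 (-0.080 to 0.32) in microglia, untreated Gclc (-0.14 to 0.20), and the cell type differences of Gclc (-0.30 to 0.043) and Keap1 (-0.16 to 0.15) with Aβ42 and Gclc (-0.18 to 0.16), Gclm (-0.053 to 0.25) and Hmox1 (-0.25 to 0.15) with Aβ40. Same-numbered replicates deviated together in only some pairs (r from -0.81 to 0.53 in astrocytes and -0.28 to 0.36 in microglia), so the numbers were not taken as pairs. Differently numbered libraries had r from -0.72 to 0.79 in astrocytes and -0.34 to 0.33 in microglia. In astrocytes, control replicate 2 deviated with Aβ42 replicate 3 (0.73) and Aβ40 replicate 1 (0.65), and Aβ42 replicate 1 with Aβ40 replicate 2 (0.79). Such shared deviations are not covered by the replicate block, and their source was not tested. The replicate block ended the calls of Gsr between the fibrils in microglia (0.35, adjusted p = 0.0579), Txnrd1 between the cell types with Aβ42 (0.42, adjusted p = 0.0537) and untreated Nfe2l2 (-0.29) and Keap1 (0.35), and changed no other call of the 10 genes. Of 900 values of named list genes 23 no longer passed, and of 750 list counts 119 moved by over 1.5 times.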
